A study of Mus musculus with 8 samples.

Results

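The 9 genes described here belong to the amino acid and endoplasmic reticulum (ER) stress response that centres on the transcription factor ATF4, together with 2 enzymes of serine synthesis. They were chosen by name, with earlier results of these data known, and all 9 were found among the 22237 genes of the normalized table. In the order of their roles these were the transcription factors Atf4 (ENSMUSG00000042406_at) and Ddit3 (ENSMUSG00000025408_at), the serine synthesis enzymes Phgdh (ENSMUSG00000053398_at) and Psat1 (ENSMUSG00000024640_at), and the asparagine synthesis enzyme Asns (ENSMUSG00000029752_at). The others were Trib3 (ENSMUSG00000032715_at), Chac1 (ENSMUSG00000027313_at), Sesn2 (ENSMUSG00000028893_at) and the ER chaperone gene Hspa5 (ENSMUSG00000026864_at). Total RNA was measured on 8 Affymetrix mouse gene arrays in primary podocytes, the cells around the glomerular capillaries, and in primary parietal epithelial cells (PECs), the lining of Bowman's capsule. PECs had grown out of glomeruli with their capsule, from PEC-rtTA/LC1/R26R mice, and podocytes out of glomeruli without it, from Pod-rtTA/LC1/R26R mice, all of a mixed Sv129 background. In these lines doxycycline switches on Cre through a cell type promoter (a rabbit podocalyxin promoter in the PEC line), and Cre activates a beta-galactosidase tag by which the cells were sorted. All groups thus carried the tag, had received doxycycline and had first grown in EGM-MV. After several passages both cell types were cultured in the medium RPMI or in the growth factor medium EGM-MV. The 4 groups, with 2 arrays each, are called podocyte RPMI, podocyte EGM-MV, PEC RPMI and PEC EGM-MV. EGM-MV also held the higher share of fetal calf serum and is a different medium from RPMI. Growth factors, serum and the other components of the media, amino acids included, thus cannot be told apart. The cell type, the mouse line and the way the glomeruli were prepared cannot be told apart either. The 2 replicates of a cell type were 2 independent cultures, each kept in both media.

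When amino acids run short or unfolded proteins accumulate in the ER, phosphorylation of the initiation factor eIF2 alpha lowers general protein synthesis while the ATF4 mRNA is translated more. ATF4 is therefore controlled to a large degree at translation, which an mRNA array does not measure. ATF4 binds C/EBP-ATF response elements and raises the mRNAs of enzymes and transporters that supply amino acids, among them those for asparagine and serine, and with lasting stress those of Ddit3, Trib3 and Chac1. Hspa5 is induced mainly by the ER-specific factors ATF6 and XBP1 through the ER stress element.

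The promoters of the members were searched on both strands for the core of the C/EBP-ATF response element, TGATGNAA, and for the ER stress element, CCAAT and CCACG with 9 bases between them. All 9 members had an entry in the RefSeq promoter table (GRCm38.p6), of which the 250 bases before the annotated start were used. A match was found in 3 of the 9 members. TGATGNAA occurred in 1134 of all 32851 promoters of the same length (3.45%) and the ER stress element in 37 (0.113%). The 3 promoters are printed below because each holds 1 of the elements through which the response is known to act. They run 5′ to 3′ on the strand of the gene, with the match in capitals, and no match overlapped another.
Asns, chr6:7693210-7693459, minus strand: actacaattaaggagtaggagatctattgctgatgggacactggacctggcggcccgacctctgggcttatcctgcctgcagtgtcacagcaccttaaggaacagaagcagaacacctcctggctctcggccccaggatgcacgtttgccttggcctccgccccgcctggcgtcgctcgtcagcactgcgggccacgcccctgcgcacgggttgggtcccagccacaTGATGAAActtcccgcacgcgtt
Chac1, chr2:119350992-119351241, plus strand: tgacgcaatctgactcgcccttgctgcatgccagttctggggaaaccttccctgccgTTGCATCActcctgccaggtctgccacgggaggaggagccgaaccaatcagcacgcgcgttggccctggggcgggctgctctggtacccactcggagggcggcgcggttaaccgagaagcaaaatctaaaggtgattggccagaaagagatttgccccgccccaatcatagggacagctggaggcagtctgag
Hspa5, chr2:34771840-34772089, plus strand: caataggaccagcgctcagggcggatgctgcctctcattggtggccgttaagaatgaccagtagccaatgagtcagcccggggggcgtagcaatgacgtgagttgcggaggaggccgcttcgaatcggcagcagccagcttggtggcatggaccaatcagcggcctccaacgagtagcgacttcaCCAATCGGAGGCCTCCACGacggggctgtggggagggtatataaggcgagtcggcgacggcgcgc
In Asns the core TGATGAAA lay 23 to 16 bases before the start on the strand of the gene. In Chac1 the core lay on the opposite strand, 193 to 186 bases before the start, and the strand of the gene printed above reads TTGCATCA there. The ER stress element of Hspa5 lay 65 to 47 bases before the start. These matches describe the letters of the promoter and are no evidence of binding in these cells.

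Levels are log2 intensities in arbitrary units, on which a difference of 1 is a 2-fold change, and levels of different genes are not comparable because each has its own probes. Array medians lay between 6.21 and 6.32, and replicates correlated across genes at r = 0.991 to 0.998. A group mean under 6 was taken as background, and no member fell below it in any group. Of all genes, 13255 reached 6 in some group. The cell type labels were not checked against marker genes here, since the files pair no gene names with their IDs. The arrays were quantile normalized by the authors, so that every change is relative to the other genes, though the medians of the deposited values still differed slightly. Within a culture, fewer cells making an mRNA cannot be told apart from less of it per cell. Differences were tested with limma on all 8 arrays and called at an adjusted p (Benjamini-Hochberg over all 22237 genes) below 0.05. These p-values treat the arrays as separate, whereas the media of a culture are not independent samples.

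**Figure D1:**
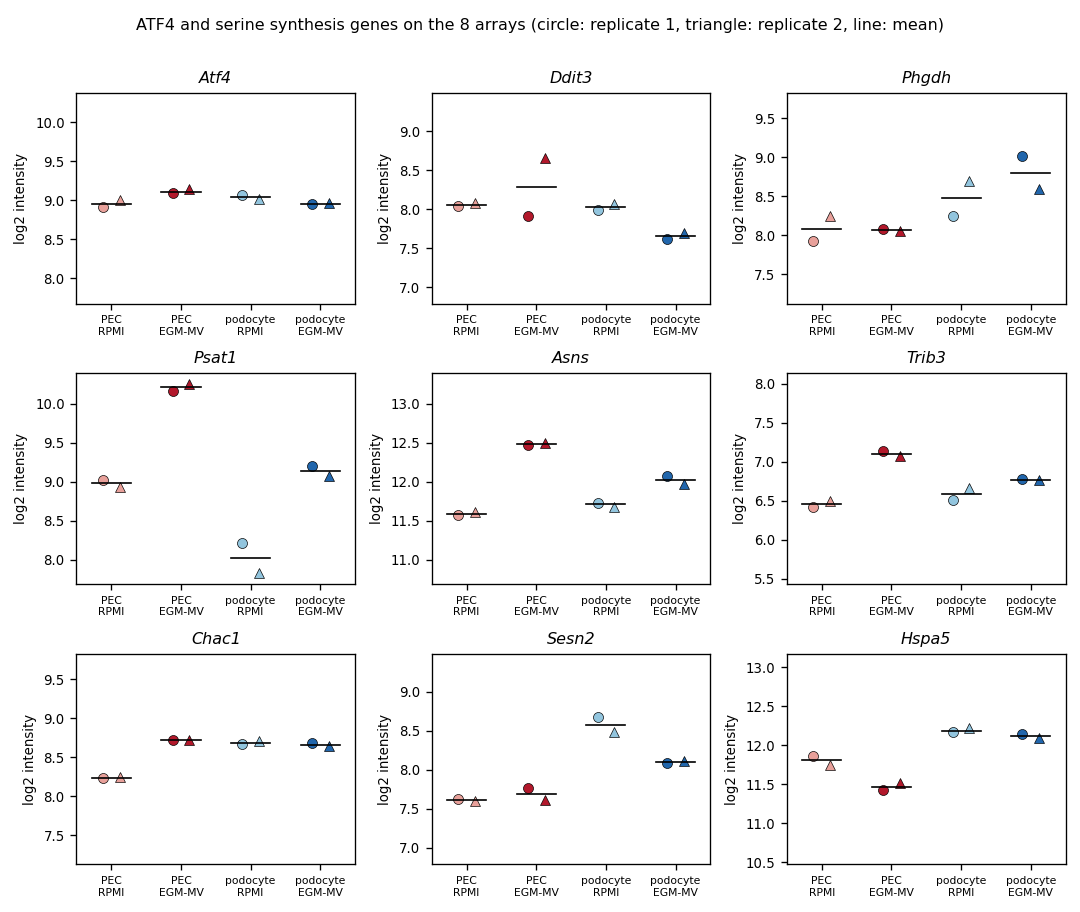
Log2 intensity of the 9 genes (1 panel each) on the 8 arrays, with circles for replicate 1, triangles for replicate 2 and a line at the group mean. Every vertical axis spans the same number of log2 units. Psat1 and Asns were higher in EGM-MV in both cell types, Trib3 and Chac1 were higher in EGM-MV in PECs, and Atf4 stayed between 8.91 and 9.14 on all arrays.

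The mRNAs of the 2 stress transcription factors were not called in any of the comparisons. Atf4, which encodes the central activator of the response, was at 8.91 and 9.0 in PEC RPMI, at 9.09 and 9.14 in PEC EGM-MV, at 9.07 and 9.02 in podocyte RPMI and at 8.95 and 8.97 in podocyte EGM-MV. PEC EGM-MV was thus highest and did not overlap with the other groups, but the whole range was narrow. EGM-MV differed from RPMI by 0.16 ± 0.07 (SE, 95% interval -0.01 to 0.33, limma adjusted p = 0.214) in PECs and by -0.08 ± 0.07 (-0.25 to 0.09, adjusted p = 0.6) in podocytes, and neither was called. Podocytes differed from PECs by 0.09 in RPMI (adjusted p = 0.412) and by -0.15 in EGM-MV (adjusted p = 0.163), and the interaction of -0.24 was not called either (adjusted p = 0.311). Ddit3, which encodes CHOP, a factor linked to cell death under lasting ER stress, was at 8.04 and 8.08 in PEC RPMI, at 7.92 and 8.66 in PEC EGM-MV, at 7.99 and 8.07 in podocyte RPMI and at 7.62 and 7.70 in podocyte EGM-MV. Its replicates in PEC EGM-MV were 0.74 apart, more than those of any other member in any group, and the second of these arrays stood above all others. In EGM-MV podocytes lay below PECs by 0.63 ± 0.21 on the log2 scale (1.54-fold), and the limma adjusted p of 0.0526 just missed the threshold. Without replicate 1 of PEC EGM-MV that difference was -1.0, and without replicate 2 it was -0.26. Ddit3 was not called for the medium in PECs (0.22, adjusted p = 0.541) or in podocytes (-0.37, adjusted p = 0.331). Without replicate 1 of PEC EGM-MV the difference for the medium in PECs was 0.60, and without replicate 2 it was -0.15. In podocytes it stayed at -0.37 in both fits. Some differences of Ddit3 passed the threshold in these fits, but the distance between the 2 PEC EGM-MV replicates then no longer entered the shared spread. The interaction of -0.60 was not called (adjusted p = 0.38), and was -0.97 without replicate 1 of PEC EGM-MV and -0.23 without replicate 2.

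Of the serine synthesis enzymes, Psat1 differed between the media and between the cell types, and Phgdh was called only between the cell types in EGM-MV. Psat1, the transaminase of the second step, was at 9.02 and 8.94 in PEC RPMI, at 10.17 and 10.25 in PEC EGM-MV, at 8.22 and 7.83 in podocyte RPMI and at 9.20 and 9.07 in podocyte EGM-MV. No groups overlapped, with PEC EGM-MV highest and podocyte RPMI lowest, and the difference between their neighbours in the middle, podocyte EGM-MV and PEC RPMI, was small and was not tested. EGM-MV raised Psat1 by 1.23 ± 0.13 in PECs (2.35-fold, limma adjusted p = 0.00226) and by 1.11 ± 0.13 in podocytes (2.16-fold, adjusted p = 0.00181). By size these differences ranked 265 and 464 among the 22237 genes. Each culture showed it, with 1.15 and 1.32 in the PEC cultures and 0.98 and 1.24 in the podocyte cultures. The response to the medium did not differ detectably between the cell types (interaction, podocytes minus PECs, -0.12, 95% interval -0.54 to 0.30, adjusted p = 0.842). Podocytes had less Psat1 than PECs in RPMI (1.94-fold lower, adjusted p = 0.00127) and in EGM-MV (2.11-fold lower, adjusted p = 0.000611). All 4 of these calls also held whichever single array was left out, though that for the medium in PECs was lost by the methods' t-test (adjusted p = 0.0544).

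Phgdh, the dehydrogenase of the first step, was at 7.92 and 8.25 in PEC RPMI, at 8.08 and 8.05 in PEC EGM-MV, at 8.24 and 8.70 in podocyte RPMI and at 9.02 and 8.59 in podocyte EGM-MV. The podocyte arrays lay above the PEC arrays, except that the lower podocyte RPMI array (8.24) fell just below the higher PEC RPMI array (8.25). In EGM-MV podocytes had 1.67-fold more Phgdh (0.74 ± 0.19, limma adjusted p = 0.0229), whereas the difference of 0.39 in RPMI was not called (95% interval -0.06 to 0.84, adjusted p = 0.184). In EGM-MV, Phgdh was thus higher in podocytes and Psat1 higher in PECs. The call of Phgdh was lost without either PEC EGM-MV array (adjusted p = 0.0693 and 0.0766) or without replicate 1 of podocyte EGM-MV (0.52, adjusted p = 0.152). For the medium Phgdh was not called in either cell type (PECs -0.01, adjusted p = 0.974, podocytes 0.33, adjusted p = 0.366). The 2 podocyte cultures went apart here, with EGM-MV minus RPMI at 0.77 in culture 1 and -0.11 in culture 2, and the interaction was 0.35 (adjusted p = 0.641).

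Asns, which makes asparagine from aspartate and glutamine, was at 11.58 and 11.61 in PEC RPMI, at 12.47 and 12.50 in PEC EGM-MV, at 11.73 and 11.68 in podocyte RPMI and at 12.07 and 11.97 in podocyte EGM-MV. The 4 groups did not overlap, in the order PEC RPMI, podocyte RPMI, podocyte EGM-MV, PEC EGM-MV from low to high, though the difference between the lower 2 was not called (0.11, limma adjusted p = 0.308). EGM-MV raised Asns by 0.89 ± 0.07 in PECs (1.85-fold, adjusted p = 0.00106), with 0.89 in both cultures, and this ranked 585 of 22237 by size. In podocytes it rose by 0.31 ± 0.07 (1.24-fold, adjusted p = 0.0291), with 0.34 and 0.29 in the cultures. The rise was smaller in podocytes (interaction -0.57 ± 0.10, 95% interval -0.82 to -0.33, adjusted p = 0.0326), and in EGM-MV podocytes had 1.38-fold less Asns than PECs (adjusted p = 0.00234). The calls in PECs and between cell types in EGM-MV held whichever single array was left out. That in podocytes was lost without either podocyte RPMI array (adjusted p = 0.0769 and 0.116) or either podocyte EGM-MV array (0.231 and 0.094), and the call of the interaction was lost whichever of the 8 arrays was left out (adjusted p = 0.0631 to 0.154, values -0.63 to -0.52).

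Of the 3 genes of feedback and degradation, Trib3 and Chac1 rose in EGM-MV in PECs and Sesn2 fell in podocytes. Trib3, a pseudokinase induced by ATF4 that dampens ATF4 activity, was at 6.42 and 6.5 in PEC RPMI, at 7.14 and 7.07 in PEC EGM-MV, at 6.51 and 6.66 in podocyte RPMI and at 6.78 and 6.76 in podocyte EGM-MV. Its PEC RPMI mean of 6.46 was the group mean of any member nearest to the background level. It rose in EGM-MV by 0.65 ± 0.08 in PECs (1.56-fold, limma adjusted p = 0.00469), with 0.72 and 0.57 in the cultures. The difference of 0.18 in podocytes was not called (95% interval -0.01 to 0.37, adjusted p = 0.228), and the interaction of -0.46 was not called either (adjusted p = 0.0912). Podocytes had 1.26-fold less Trib3 than PECs in EGM-MV (adjusted p = 0.0165), a call lost without replicate 1 of PEC EGM-MV (adjusted p = 0.0786) or either podocyte EGM-MV array (0.0855 and 0.0994), and in RPMI the difference was 0.12 (adjusted p = 0.312).

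Chac1, whose enzyme breaks down glutathione, was at 8.24 and 8.25 in PEC RPMI, at 8.72 and 8.72 in PEC EGM-MV, at 8.67 and 8.71 in podocyte RPMI and at 8.68 and 8.65 in podocyte EGM-MV. PEC RPMI alone was low, and the other 3 groups lay between 8.65 and 8.72. Chac1 rose in EGM-MV by 0.48 ± 0.07 in PECs (1.39-fold, limma adjusted p = 0.00635), the same in both cultures, against -0.03 in podocytes (95% interval -0.19 to 0.13, adjusted p = 0.897). The interaction was -0.51 ± 0.10 (95% interval -0.73 to -0.28, adjusted p = 0.0374), and its call was lost whichever of the 8 arrays was left out (adjusted p = 0.0761 to 0.181, values -0.52 to -0.49). In RPMI podocytes had 1.37-fold more Chac1 than PECs (adjusted p = 0.00221), and in EGM-MV the difference was -0.06 (95% interval -0.21 to 0.10, adjusted p = 0.587).

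Sesn2, a stress-induced leucine sensor that restrains the growth kinase complex mTORC1, was at 7.63 and 7.6 in PEC RPMI, at 7.77 and 7.61 in PEC EGM-MV, at 8.68 and 8.49 in podocyte RPMI and at 8.09 and 8.11 in podocyte EGM-MV. Podocyte arrays were above all PEC arrays, podocyte RPMI highest, while both PEC groups overlapped. Podocytes had 1.96-fold more Sesn2 in RPMI (0.97 ± 0.09, limma adjusted p = 0.000277, rank 1494 of 22237 by size) and 1.33-fold more in EGM-MV (0.41 ± 0.09, adjusted p = 0.0121). Unlike Asns and Psat1, Sesn2 fell in EGM-MV in podocytes, by 0.48 ± 0.09 on the log2 scale (1.4-fold, adjusted p = 0.0147), with -0.59 and -0.38 in the cultures, and PECs showed a difference of 0.08 (95% interval -0.14 to 0.29, adjusted p = 0.665). The interaction of -0.56 was not called (adjusted p = 0.076), but was with culture as a fixed replicate block (adjusted p = 0.0431) and after repeated quantile normalization (-0.53, adjusted p = 0.0423). The difference between cell types in EGM-MV was no longer called without replicate 2 of PEC EGM-MV (adjusted p = 0.0644) or either podocyte EGM-MV array (0.0683 and 0.076). The fall in podocytes was no longer called without replicate 1 of podocyte RPMI (adjusted p = 0.0744) or either podocyte EGM-MV array (0.113 and 0.0893).

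Hspa5, which encodes BiP, the chaperone of the ER lumen, was at 11.87 and 11.75 in PEC RPMI, at 11.43 and 11.52 in PEC EGM-MV, at 12.17 and 12.22 in podocyte RPMI and at 12.15 and 12.09 in podocyte EGM-MV. All podocyte arrays were above all PEC arrays, and PEC EGM-MV was lowest. Podocytes had 1.31-fold more Hspa5 in RPMI (0.38 ± 0.08, limma adjusted p = 0.0094) and 1.57-fold more in EGM-MV (0.65 ± 0.08, adjusted p = 0.000721). The former call was lost without replicate 2 of PEC RPMI (adjusted p = 0.0539). In PECs Hspa5 fell in EGM-MV by 0.33 ± 0.08 on the log2 scale (1.26-fold, adjusted p = 0.0356), opposite to Asns, Psat1, Trib3 and Chac1 in the same cells, but this call was lost whichever of the 8 arrays was left out (adjusted p = 0.0514 to 0.147, values -0.39 to -0.27). In podocytes the difference was -0.07 (95% interval -0.26 to 0.11, adjusted p = 0.699), and the interaction was 0.26 (adjusted p = 0.317).

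**Figure D2:**
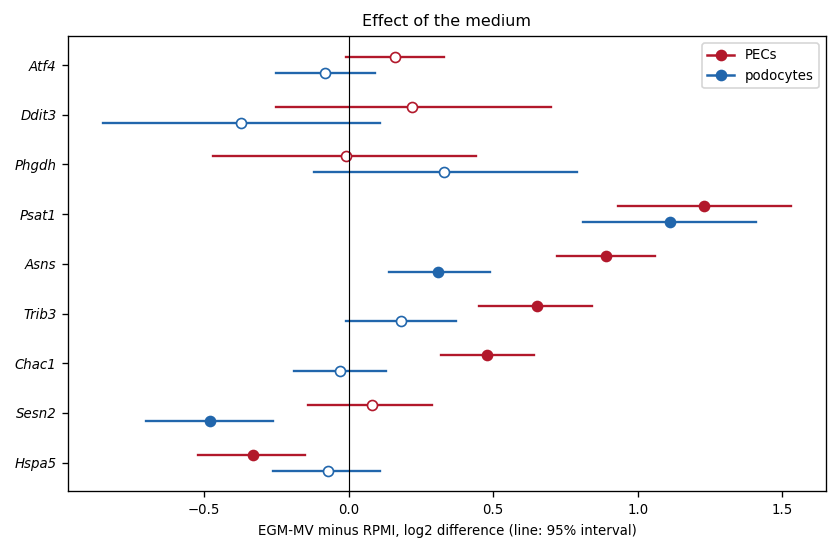
Difference between media (EGM-MV minus RPMI, log2) of the 9 genes in PECs (red) and podocytes (blue). Points are fitted differences, filled where called, and lines are 95% intervals. Psat1 lies at 1.23 and 1.11, whereas Asns, Trib3 and Chac1 lie farther right in PECs (0.89, 0.65 and 0.48) than in podocytes (0.31, 0.18 and -0.03).

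To show how the medium altered the genes as a group, the calls were counted within each cell type. The list was chosen with earlier results of these data known. The shares and medians of all genes beside it, here and between the cell types, are thus a description and no test of the list. In PECs 4 of 9 members were higher in EGM-MV (Psat1, Asns, Trib3 and Chac1), 1 was lower (Hspa5) and 4 were not called. Of all genes, 7.64% were called higher and 4.62% lower in this comparison, or 6.84% and 6.27% after repeated quantile normalization. The members' median difference was 0.22, against -0.01 over all genes. In podocytes 2 members were higher (Psat1 and Asns), 1 was lower (Sesn2) and 6 were not called, beside 7.7% of all genes higher and 5.99% lower. The median in podocytes was -0.03 for the members and -0.01 for all genes. For the difference between these responses, 0 members were called higher by limma and 2 were called lower (Asns and Chac1), and at an unadjusted p under 0.05 there were 5, all of them lower, beside 8.18% of all genes lower and 7.79% higher at that threshold. By adjusted p, 1.48% of all genes were called higher and 1.51% lower in that interaction, or 1.06% and 1.81% after centring the arrays on their medians. The members' median interaction was -0.46, against 0.01 for all genes.

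**Figure D3:**
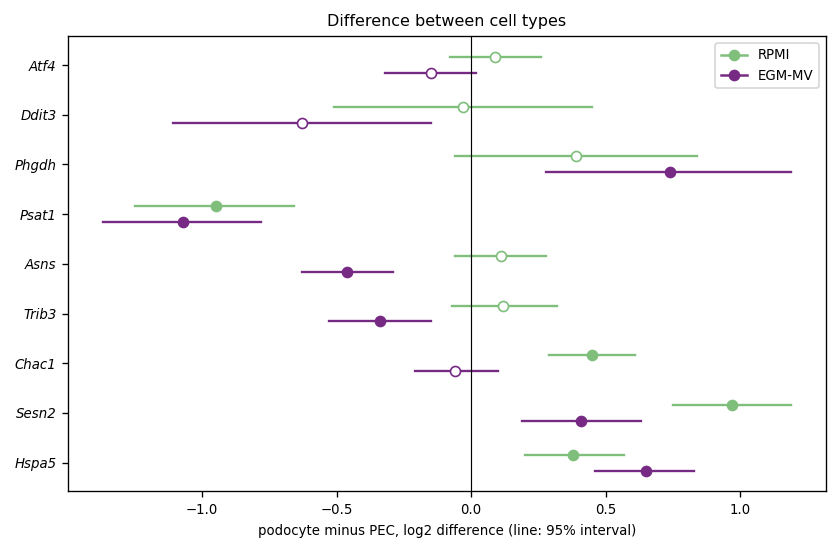
Difference between cell types (podocyte minus PEC, log2) of the 9 genes in RPMI (green) and EGM-MV (purple). Points are fitted differences, filled where called, and lines are 95% intervals. Psat1 lies left of 0 in both media (-0.95 and -1.07), Sesn2 and Hspa5 lie right of 0 in both, and Asns and Trib3 lie left of 0 in EGM-MV.

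Between the cell types the members were called in both directions. In RPMI 3 members were higher in podocytes (Sesn2, Chac1 and Hspa5), 1 was lower (Psat1) and 5 were not called. Of all genes 15.5% were higher and 12.8% lower, or 17.8% and 9.22% after centring the arrays on their medians. In EGM-MV 3 members were higher in podocytes (Phgdh, Hspa5 and Sesn2), 3 were lower (Psat1, Asns and Trib3) and 3 were not called, beside 16.6% of all genes higher and 15.5% lower. The members' medians were 0.12 in RPMI and -0.15 in EGM-MV, against -0.05 over all genes in each medium. These comparisons share their arrays with those of the media. In the test over the 4 groups (limma F test) 7 of 9 members were called, all but Ddit3 (adjusted p = 0.157) and Atf4 (0.272), beside 42.4% of all genes.

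The 7 members called in that test were also set against their common profile. Over the 8 arrays, the mean of their standardized values correlated at r = 0.95 with Chac1, 0.69 with Trib3, 0.67 with Asns, 0.58 with Phgdh, 0.42 with Sesn2, 0.20 with Psat1 and 0.14 with Hspa5. The arrays share cultures and groups, and the members form part of the mean, so these values describe the pattern only. Outside the list, ENSMUSG00000041736_at and ENSMUSG00000003438_at were most like this mean, each at r = 0.979 over the 8 arrays. The former was at 8.45 ± 0.03 (SD, n = 2) in PEC RPMI and at 9.14 to 9.39 in the means of the other groups, and the latter at 8.26 ± 0.01 and 8.56 to 8.60. As with Chac1, PEC RPMI stood lowest. These 2 genes were picked for their likeness to a mean that Chac1 followed closely, so this shared pattern is no separate result.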

How the data were processed

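Total RNA of 8 samples was hybridized to Affymetrix Mouse Gene 1.0 ST arrays. The authors made the deposited log2 values in JMP Genomics with a custom definition of 1 probe set per Ensembl gene, by RMA background correction, quantile normalization, log2 conversion and removal of outlying measurements. The RMA version was not given in the sources used here. Group means were fitted in the normalized table of 22237 genes with limma 3.58.1 in R 4.3.3 (lmFit, eBayes, two-sided, 4 residual degrees of freedom). The contrasts were podocyte minus PEC in each medium, EGM-MV minus RPMI in each cell type, their interaction and an F test over the 4 groups. Values per replicate came from the series matrix, which held 22215 of these genes with identical values (largest difference 0). The code was tested on simulated data.

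The replicate number paired the media within a cell type: the column names gave 1 culture number to both media of each replicate in all 4 cultures, as the methods describe. Replicate differences correlated between media across genes at r = 0.53 in PECs and 0.07 in podocytes, and between cell types at 0.02 to 0.08. Genes are not independent replicates here.

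The members and lists were chosen with earlier results of these data known. Named genes were all members and the 2 other genes most like the mean of the members called in the F test. Member names come from the list, and the gene table used here paired none of the other IDs with a symbol, so lists of other pathway genes and of cell type markers were not analysed here. Alternatives were centring each array on its median, repeated quantile normalization, a filter on dim genes, the methods' t-test, the second table, leaving out each array, and culture as a fixed or random replicate block. The methods' t-test stands here for an ordinary t-test in the same fit, with the p-values adjusted within each comparison. The methods also describe a single p threshold for the whole study, which was not applied, so the counts are not those of the paper. The number of arrays limits the precision.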

Additional observations from a re-analysis of the deposited data

Results flagged for a closer look

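The response to the medium differed between the cell types for 2 members by a test of the difference itself. Both were called lower, beside 1.51% of all genes called lower and 1.48% called higher. For Asns the effect of EGM-MV in podocytes minus that in PECs was -0.57 (limma adjusted p = 0.0326), from 0.31 in podocytes and 0.89 in PECs. For Chac1 it was -0.51 (adjusted p = 0.0374), from -0.03 in podocytes and 0.48 in PECs. By the methods' t-test neither was called (adjusted p = 0.103 for Asns and 0.073 for Chac1), and only 1 of all genes was. In every one of the 4 cultures the effect on Asns was above 0, whereas Chac1 was higher in EGM-MV in both PEC cultures (0.48 each) and was at 0 and -0.06 in the podocyte cultures. Both calls were lost whichever single array was left out, and mouse line and glomerular preparation cannot be told apart from cell type.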

How the results depend on the processing

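Of 45 member differences (9 genes in 5 comparisons), 20 were called. Of these, 0 changed sign in the settings they entered (14 in all). Only centring, repeated normalization and leaving out a compared array could move a value. For the medium in PECs 5 members were called, and 3 by the methods' t-test. For the interaction 2 were, against 1 without dim genes and 0 by the methods' t-test. There were 3 each with median centring, repeated quantile normalization and the fixed replicate block. Leaving out 1 array, with the lone array left in its group assumed to vary like the other groups, gave 3 to 4 members called between cell types in RPMI, 3 to 6 in EGM-MV, 4 to 5 for the medium in PECs, 1 to 4 in podocytes, 0 to 1 for the interaction and 6 to 7 in the F test. Leaving out 1 array moved Ddit3 between cell types in RPMI over -0.07 to 0.01, Ddit3 for the medium in PECs over -0.15 to 0.60, Phgdh there over -0.18 to 0.15, Sesn2 there over -0.0024 to 0.15, and the interaction of Psat1 over -0.31 to 0.07. Atf4 between cell types in RPMI was -0.0014 after repeated quantile normalization. With median centring, Ddit3 in the same comparison was 0.05 and Phgdh for the medium in PECs was 0.03. None of these was called in the fit reported, and all changed sign within these values. The causes were not tested. Among the calls, that of Phgdh between cell types in EGM-MV was lost with repeated quantile normalization (adjusted p = 0.0521), that of Hspa5 for the medium in PECs with median centring (0.0577), and that of Asns for the medium in podocytes with either (0.056 and 0.0529). The interaction of Chac1 was lost with repeated quantile normalization (0.0627) and without dim genes (0.055). Trib3 gained a call there with median centring (0.0465) and repeated quantile normalization (0.0402), Sesn2 gained one there with the latter (0.0423), and Ddit3 between cell types in EGM-MV gained one without dim genes (0.034). With culture as a replicate block the interaction of Sesn2 passed (0.0431), and no other member call changed. The methods' t-test, which estimates the spread of each gene alone, also lost the calls of Phgdh between cell types in EGM-MV (adjusted p = 0.119), of Psat1 and Hspa5 for the medium in PECs (0.0544 and 0.083), of Sesn2 for that in podocytes (0.074), and both interactions (0.103 for Asns and 0.073 for Chac1). Over all genes it called 4070 between cell types in RPMI against 6312 by limma, 358 for the medium in PECs against 2726, 1084 in podocytes against 3045, 1 for the interaction against 664 and 6116 in the F test against 9432. With the fixed replicate block 4268 genes were called for the medium in PECs and 1604 for the interaction. Leaving out 1 array gave 4187 to 6502 genes between cell types in RPMI, 4432 to 7429 in EGM-MV, 1601 to 2353 for the medium in PECs, 923 to 3365 in podocytes and 149 to 651 for the interaction.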
